A study of Mus musculus with 18 samples.

Results

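DNA methylation was examined around 9 genes that encode myeloid transcription factors, namely *Spi1*, *Cebpa*, *Cebpb*, *Cebpd*, *Cebpe*, *Irf8*, *Irf4*, *Klf4* and *Gfi1*, out of 21924 protein-coding genes of the annotation. Every region that overlapped the body of one of these genes, extended by 10 kb on each side, was taken. This gave 125 of the 411770 regions listed for CD11b+ cells and 148 of the 553467 regions listed for CD4+ cells. The cells came from spleens of age-matched young adult mice and were isolated on magnetic columns by their surface CD11b, an integrin chain of myeloid cells, or CD4, the coreceptor of helper T cells. WT mice were Dnmt3a+/+. Mutant mice carried 1 Dnmt3a R878H allele (genotype label Dnmt3aR878/+, written R878H/+ here), which *Vav1-iCre*, a recombinase transgene active throughout the hematopoietic system, had switched on in all blood lineages. The study uses the label Dnmt3a+/+ for control mice with this transgene and no R878H allele, and for mice with the inactive allele and no transgene. Which of them were sequenced here is not stated. Each combination of genotype and cell type comprised 4 mice, and the 6 entries of R878H/+ CD11b+ cells belong to 4 replicate numbers. R878H is the mouse counterpart of a frequent mutation of human clonal hematopoiesis, and it reduces the activity of DNMT3A, an enzyme that places methyl groups on cytosines.

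These 9 factors direct the formation of granulocytes, monocytes and dendritic cells from blood progenitors. PU.1 (the product of *Spi1*) and the C/EBP proteins open and activate myeloid genes, IRF8 and KLF4 favour monocytes and dendritic cells, and GFI1, a repressor, favours neutrophils and is also used by T cells. IRF4 acts in lymphocytes and in some dendritic cells. Promoters of active genes usually lie in CpG-dense DNA that is free of methylation, while enhancers often have intermediate methylation that differs between cell types.

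Whole-genome bisulfite sequencing gives the methylated share of each CpG cytosine. For each listed region the deposited tables give the mean of each genotype in percent, the number of CpG cytosines (both strands counted) and the q-value of metilene, the program that defined the regions and compared the genotypes in each. Neither values of single mice nor read depths are given, so the group means below have no error, and whether a change was shared by all 4 mice cannot be told apart from a change in some of them. The means are the authors' means, and the genotype given first was read as WT because the study shows WT as the more methylated one, so every direction rests on that reading. A region was called a differentially methylated region (DMR) when it held more than 10 CpG cytosines, the means differed by more than 20 percentage points and the q-value was below 0.05. The study states more than 10 CpGs, which was read here as the count in the tables. Counted as CpG dinucleotides of the mm10 sequence, 42 regions of the 9 genes in each cell type could be called, and CD4+ cells had 6 DMRs in place of 7, without the *Spi1* DMR of 15 cytosines, which spans 9 dinucleotides. A DMR with the lower mean in R878H/+ cells is called hypomethylated, the opposite hypermethylated. Of the regions of the 9 genes, 57 in CD11b+ cells and 80 in CD4+ cells held more than 10 cytosines and could be called. The check of the cell types rested on WT methylation near the transcription starts of marker genes. All 4 myeloid markers listed in both tables were less methylated in CD11b+ cells (range 36.2% to 89.4%, against 52.6% to 92.5% in CD4+ cells). Of 7 T-cell markers, 5 were less methylated in CD4+ cells, among them *Tcf7* by little (15.3% in CD11b+ and 15.0% in CD4+ cells). The 2 others were *Cd4* itself (77.9% in CD11b+ and 92.2% in CD4+ cells) and *Bcl11b* (3.08% and 3.92%). Of 4 B-cell markers, 3 were less methylated in CD11b+ cells, among them *Cd79a* (41.6% against 66.4%) and *Cd79b* (23.4% against 53.2%). The part of other cell types in the results was not tested.

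Stretches of 200 bases from the DMRs on which the results turn are shown first, to let the CpGs of their sequence be seen. Not all of these CpGs lie behind the values. The *Gfi1* DMR of CD11b+ cells spans 97 CpG dinucleotides, and its means rest on 62 cytosines with both strands counted. Which CpGs of a stretch were used is not given. Each is the plus strand of mm10 from 5′ to 3′, chosen within its DMR as the stretch with the most CpGs outside untranslated sequence, with every CpG in capitals. The *Gfi1* stretch holds 33 CpGs and the *Spi1* stretch, from the exon that encodes the ETS DNA-binding domain, 15. The losses at *Cebpa*, *Cebpb* and *Irf8* lie outside the genes and hold 7, 9 and 13. The gains lie in coding sequence, with 22 CpGs in *Cebpb*, where the bases encode the basic region and leucine zipper, and 19 in *Klf4*.
Gfi1 loss, chr5:107721519-107721718: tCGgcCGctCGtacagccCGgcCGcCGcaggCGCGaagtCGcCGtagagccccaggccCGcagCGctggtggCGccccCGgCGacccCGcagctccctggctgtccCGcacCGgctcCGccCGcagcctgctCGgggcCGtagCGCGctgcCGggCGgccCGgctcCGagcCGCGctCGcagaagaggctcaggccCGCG
Spi1 loss, CD4+ cells, chr2:91115092-91115291: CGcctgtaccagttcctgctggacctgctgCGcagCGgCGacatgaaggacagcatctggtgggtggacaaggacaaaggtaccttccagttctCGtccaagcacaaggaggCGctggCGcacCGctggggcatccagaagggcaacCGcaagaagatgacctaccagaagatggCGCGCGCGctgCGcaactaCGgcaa
Cebpa loss, chr7:35129251-35129450: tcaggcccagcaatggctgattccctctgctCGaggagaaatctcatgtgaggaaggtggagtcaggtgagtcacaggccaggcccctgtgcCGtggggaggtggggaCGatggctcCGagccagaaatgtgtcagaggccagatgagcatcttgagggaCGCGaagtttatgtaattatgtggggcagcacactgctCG
Cebpb loss, chr2:167690942-167691141: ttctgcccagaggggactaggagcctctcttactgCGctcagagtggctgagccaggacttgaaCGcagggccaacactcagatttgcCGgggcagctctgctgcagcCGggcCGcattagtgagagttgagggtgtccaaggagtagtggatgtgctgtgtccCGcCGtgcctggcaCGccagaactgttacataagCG
Irf8 loss, chr8:120731831-120732030: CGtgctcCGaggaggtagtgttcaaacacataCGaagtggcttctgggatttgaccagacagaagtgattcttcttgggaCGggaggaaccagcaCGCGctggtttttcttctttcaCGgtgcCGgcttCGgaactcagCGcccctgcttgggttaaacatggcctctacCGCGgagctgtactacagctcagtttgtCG
Cebpb gain, chr2:167689687-167689886: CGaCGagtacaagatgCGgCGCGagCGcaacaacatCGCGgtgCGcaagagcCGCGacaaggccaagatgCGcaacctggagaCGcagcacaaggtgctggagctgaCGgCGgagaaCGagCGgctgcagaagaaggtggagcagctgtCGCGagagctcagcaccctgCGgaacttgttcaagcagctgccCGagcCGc
Klf4 gain, chr4:55530564-55530763: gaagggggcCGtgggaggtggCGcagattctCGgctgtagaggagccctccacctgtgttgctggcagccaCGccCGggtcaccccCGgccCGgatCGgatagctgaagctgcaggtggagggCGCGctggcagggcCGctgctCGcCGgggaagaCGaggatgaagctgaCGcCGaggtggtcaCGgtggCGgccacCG

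In CD11b+ cells, the windows of 4 genes contained a hypomethylated DMR (*Cebpa*, *Cebpb*, *Irf8* and *Gfi1*, 1 each), and those of *Cebpb* and *Klf4* contained a hypermethylated DMR each. In CD4+ cells, 7 hypomethylated DMRs lay in the windows of 5 genes, 3 of them at *Spi1* and 1 each at *Cebpa*, *Irf8*, *Irf4* and *Gfi1*, and 0 were hypermethylated, with or without the q-value threshold. The strongest loss in both cell types was in coding exons of *Gfi1*. Hypomethylated DMRs were thus 4 of 125 regions in CD11b+ cells and 7 of 148 in CD4+ cells, beside 0.576% and 0.665% of all listed regions. By gene, they were in 4 of the 8 windows with a region that could be called in CD11b+ cells, beside 9.88% of 18364 genes, and in 5 of 9 in CD4+ cells, beside 13.4% of 19131 genes. The 9 genes had a median of 7 such regions per window in each cell type, and all genes had a median of 5 (CD11b+ cells) or 6 (CD4+ cells). These genes were chosen with earlier results of these data known. Comparisons with all regions or genes, here and below, are therefore no independent evidence of an excess. No region of *Cebpd* in CD11b+ cells held more than 10 cytosines.

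Over all regions of the 9 genes, median methylation was 76.6% in WT and 62.2% in R878H/+ CD11b+ cells, while CD4+ cells had medians of 84.9% and 68.9%. The median loss, in percentage points, was 9.5 for CD11b+ cells (6.55 over all listed regions) and 11.4 for CD4+ cells (6.85). Losses of more than 20 percentage points made up 16.8% of the regions of the 9 genes in CD11b+ cells (7.01% of all listed regions) and 21.6% in CD4+ cells (6.23%). Without any one of the genes, the median stayed between 8.87 and 9.82 in CD11b+ cells and between 11.1 and 11.7 in CD4+ cells. The 9 genes have fewer fully methylated regions than the genome, so losses were also read at equal WT methylation. At 70% to 90% in WT, the median loss was 9.91 percentage points over 47 regions of these genes in CD11b+ cells (8.2 over all regions) and 14.1 over 59 in CD4+ cells (8.85). At 40% to 70% it was 14.9 over 31 regions in CD11b+ cells (15.5 over all regions) and 19.2 over 22 in CD4+ cells (14.9). At 10% to 40% it was 14.3 over 11 regions in CD11b+ cells (10.3 over all regions) and 11.1 over 9 in CD4+ cells (9.31). The median at the 9 genes was thus the larger one in each of these classes except 40% to 70% in CD11b+ cells.

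**Figure D1:**
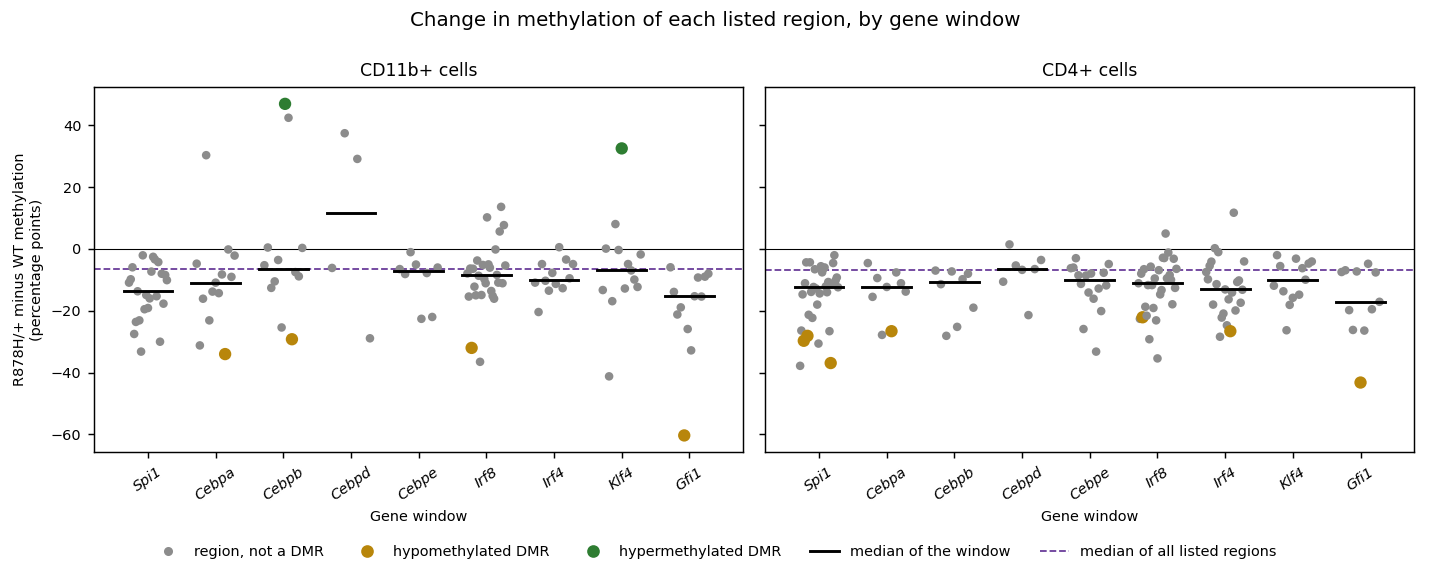
Change in methylation (R878H/+ minus WT, percentage points) of each listed region in the windows of the 9 genes, in CD11b+ cells (left) and CD4+ cells (right), with points ordered along each window by position relative to the gene start. Large gold and green points are hypomethylated and hypermethylated DMRs, black bars are window medians and the dashed line is the median over all listed regions. Gains above 20 percentage points appear at *Cebpa*, *Cebpb*, *Cebpd* and *Klf4* in CD11b+ cells. None appears in CD4+ cells, where no region was listed over the gained stretches.

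*Spi1* (chr2:91082390-91115756, plus strand, mm10) encodes PU.1, the ETS factor required for myeloid and B-cell development. All 23 of its regions in CD11b+ cells and all 32 in CD4+ cells had the lower mean in R878H/+ cells, with median losses of 13.7 and 12.4 percentage points. Of its DMRs in CD4+ cells, the one with the largest loss lay in the last coding exon, where 22 cytosines fell from 88.4% to 51.5% (chr2:91115092-91115357, q = 7.2e-11). The same exon had means of 85.2% and 55.2% over 18 cytosines in CD11b+ cells, where metilene gave q = 1. Thus a difference of 30 percentage points was not called, and the tables do not show the spread between mice that stands behind this q. A pair of intronic DMRs in CD4+ cells fell from 81.8% to 52.1% (1588 to 2771 bp downstream of the gene start, q = 0.0044) and from 86.2% to 58.1% (3819 to 4564 bp, q = 0.036). Upstream of *Spi1*, between 4570 and 4133 bp from the start, means were 48.1% in WT and 20.6% in R878H/+ CD11b+ cells (q = 1). The matching region of CD4+ cells had 65.2% and 27.4% (q = 0.7), a difference larger than at any of the DMRs of *Spi1*, over 13 cytosines. Within 1 kb of an annotated start, the CD11b+ regions had means of 38.5% and 24.8% upstream of the gene and of 46.6% and 27.1% at an internal start. The CD4+ regions near internal starts had means of 94.2% and 87.6%, 90% and 77.2%, and 48.8% and 30.8%, none of them a DMR.

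**Figure D2:**
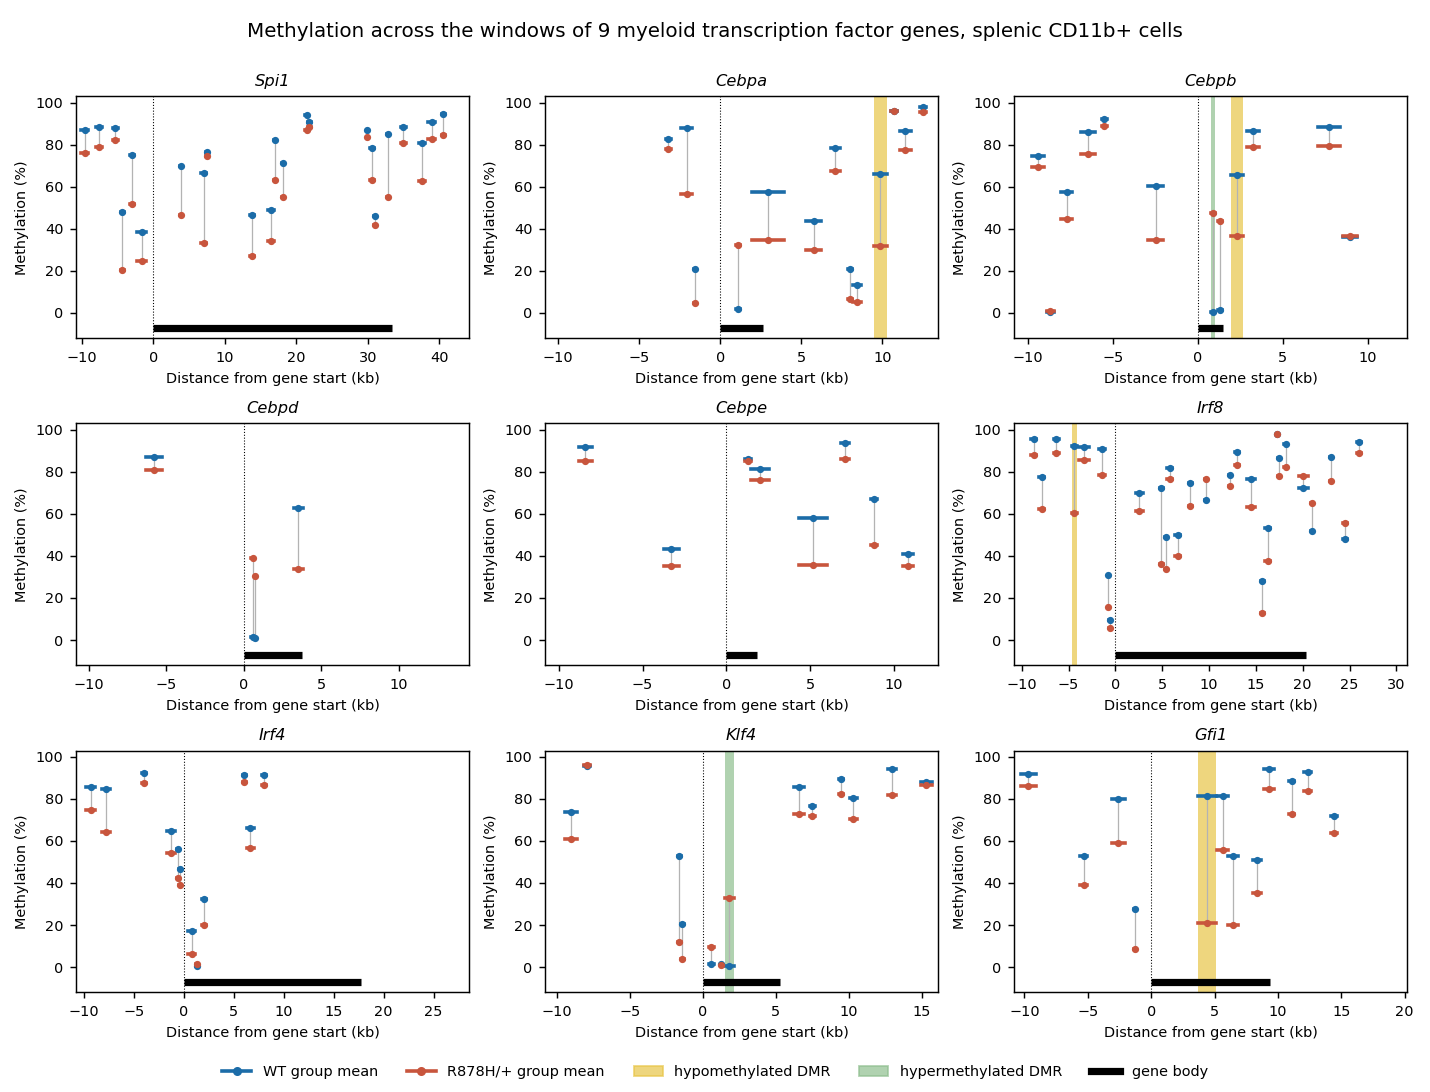
Mean methylation (%, vertical axis) of WT and R878H/+ CD11b+ cells in every listed region of the 9 windows, by distance from the gene start in kb (negative is upstream, in the direction of transcription). Bars span each region, grey lines join the genotypes and shading marks DMRs. The R878H/+ mean lies below the WT mean in 110 of 125 regions, and the regions with gains above 20 points lie inside or at the end of *Cebpa*, *Cebpb*, *Cebpd* and *Klf4*, where WT methylation is close to 0.

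*Cebpa* (chr7:35119293-35121928, plus strand) encodes C/EBPα, which progenitors need to enter the granulocyte path. Its hypomethylated DMRs differed in position between the cell types. In CD11b+ cells, methylation fell from 66% to 32% about 9.5 kb downstream of the start (chr7:35128788-35129551, 21 cytosines, q = 0.013), where no region of CD4+ cells was listed. In CD4+ cells, it fell from 84.8% to 58.2% across the end of the 3′ untranslated region (chr7:35121270-35122878, 32 cytosines, q = 0.00026). The CD11b+ region that begins at the same base had means of 57.6% and 34.5% over 32 cytosines (q = 1), so that WT CD11b+ cells had about the methylation that R878H/+ CD4+ cells had there. Upstream, between 2423 and 1740 bp from the start, means were 87.8% and 56.7% in CD11b+ cells (q = 0.28). The overlapping region of CD4+ cells had 91.5% and 63.7% (q = 0.17), the largest difference of the *Cebpa* window in that cell type.

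*Cebpb* (chr2:167688915-167690418, plus strand) encodes C/EBPβ, which drives granulopoiesis in infection and inflammation. Its window held changes in opposite directions in CD11b+ cells. The coding sequence gained methylation, from 0.648% to 47.5% over 22 cytosines (chr2:167689687-167689918, 772 to 1003 bp from the start, q = 0.034), in a stretch with a GC content of 65.9%. About 1 kb further downstream, beyond the gene, methylation fell from 65.8% to 36.5% over 23 cytosines (chr2:167690839-167691545, q = 0.013). Between them, the 3′ untranslated region had means of 1.25% and 43.6% over 10 cytosines, too few to be called. In CD4+ cells no region was listed over either of the gains. The region over the loss had means of 72.2% and 47.0% over 26 cytosines (q = 1), and that between 1356 and 710 bp upstream of the start 90.1% and 82.8%. The largest CD4+ difference at *Cebpb* lay further upstream, with 71.5% and 43.4% over 10 cytosines. The *Tmem189* gene model overlaps the upstream regions and the coding gain.

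*Cebpd* (chr16:15887286-15891031, plus strand) and *Cebpe* (chr14:54710360-54712174, minus strand) encode C/EBPδ, induced in acute inflammation, and C/EBPε, needed for the late steps of granulocyte maturation. Neither window held a DMR in either cell type. In the coding sequence of *Cebpd*, CD11b+ cells had means of 1.35% in WT and 38.8% in R878H/+ (493 to 681 bp from the start) and of 1.15% and 30.3% (723 to 809 bp), each over 10 cytosines. In CD4+ cells, a region across the *Cebpd* start, from 336 bp upstream to 138 bp downstream, had 0.825% and 2.27%, and the regions from 1089 to 1338 bp had 8.58% and 3.23%, and 11.6% and 4.8%. Those bases of the *Cebpd* coding sequence were thus not listed for both cell types. At the 3′ end of *Cebpd*, where both had a listed region, CD11b+ cells had means of 62.7% and 33.9% and CD4+ cells of 82.8% and 61.4%. All 8 regions of *Cebpe* in CD11b+ cells and all 16 in CD4+ cells had the lower mean in R878H/+ cells, with median losses of 7.16 and 9.96 percentage points. The largest difference lay downstream of *Cebpe* in both, with 58.1% and 35.5% in CD11b+ cells (4322 to 6009 bp from the start) and 73.2% and 40% in CD4+ cells (4867 to 6008 bp). Around the *Cebpe* start, CD4+ cells had 55.5% and 29.6% upstream and 92.7% and 84.1%, and 95.4% and 81.3%, in the gene. No region within 1 kb of the *Cebpe* start was listed for CD11b+ cells.

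*Irf8* (chr8:120736358-120756694, plus strand) encodes a factor of monocytes and dendritic cells that also restrains neutrophil numbers. It shared a DMR between the cell types, between about 4.8 and 4.1 kb upstream of the start. There, methylation fell from 92.2% to 60.2% over 17 cytosines in CD11b+ cells (chr8:120731699-120732271, q = 0.0013) and from 91.7% to 69.6% over 22 cytosines in CD4+ cells (chr8:120731526-120732271, q = 0.00045). This DMR began at a high WT level that was about equal in both cell types. Of 28 regions in CD11b+ cells, 24 had the lower and 4 the higher mean in R878H/+ cells. The 4 higher ones lay in the gene and downstream of it and differed by 10.2, 5.64, 13.6 and 7.7 percentage points, all with q = 1. In CD4+ cells 28 of 29 regions were lower. Near the *Irf8* start, means were 30.7% and 15.7%, and 9.35% and 5.6%, in CD11b+ cells, and 37.0% and 15.4% in the overlapping region of CD4+ cells, with none called. Regions near the annotated internal starts had differences between a loss of 16.1 and a gain of 10.2 percentage points in CD11b+ cells. The largest CD11b+ difference of the *Irf8* window, 72.5% against 36%, lay 4751 to 5040 bp from the start over 10 cytosines. Near internal starts of *Irf8*, regions of CD4+ cells differed by 2.85 to 35.4 percentage points, the largest with 67.8% against 32.4% over 10 cytosines. Those on either side of the first start had 82.8% and 64.1% upstream, and 48.4% and 36.7%, and 68.2% and 39%, inside the gene. *Irf8* lies within *Gm20388*, a gene model that spans many genes of chromosome 8.

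*Irf4* (chr13:30749226-30766976, plus strand) had no DMR in CD11b+ cells, where the largest of its 12 differences was 84.6% against 64.2%, about 8 kb upstream (q = 1). In CD4+ cells an intron of *Irf4* fell from 84.7% to 58.1% (chr13:30758101-30759004, 17 cytosines, q = 0.027). Next to it, 32 cytosines over a coding exon had means of 90% and 73.7% with q = 0.0017, a difference of 16.3 percentage points and so short of the limit for a DMR. Close to the *Irf4* start, means in CD11b+ cells were 64.7% and 54.4%, 56.0% and 42.5%, 46.7% and 39.0% from upstream to the start, and 17.4% and 6.14% just inside the gene. In CD4+ cells, the region from 861 to 689 bp upstream of *Irf4* had 34.1% and 22.8%, and the largest difference was 74.2% against 45.9% (16 cytosines, q = 1). The first coding exon had less than 2% in all 4 groups, CD11b+ cells having 0.75% and 1.3% and CD4+ cells 1.5% and 0.462%.

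*Klf4* (chr4:55527143-55532466, minus strand) encodes a zinc-finger factor of monocyte differentiation. A region of its long coding exon gained methylation in CD11b+ cells, from 0.405% to 32.9% over 29 cytosines (chr4:55530327-55530953, q = 0.0029). The region spans 48 CpG dinucleotides, so these means rest on a minority of its CpG cytosines. The next regions toward the *Klf4* start did not share a gain of this size, since means were 1.3% and 0.95% between 1219 and 1300 bp and 1.32% and 9.35% between 439 and 749 bp from the start. Just upstream, from 1729 to 1508 bp before the start, means were 52.9% in WT and 11.7% in R878H/+ CD11b+ cells over 12 cytosines. With q = 0.09 this region, the largest difference of the *Klf4* window, was not called. The overlapping region of CD4+ cells had 41.5% and 15.3% over 24 cytosines (q = 0.53).

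*Gfi1* (chr5:107716657-107726036, minus strand) encodes a zinc-finger repressor needed for neutrophil formation. The DMR in its coding exons was the most extensive change of the 9 genes. Over 62 cytosines, methylation fell from 81.5% to 21.2% in CD11b+ cells (chr5:107720934-107722325, q = 9.3e-43), and over 86 cytosines it fell from 87.3% to 44.1% in CD4+ cells (chr5:107721030-107722499, q = 1.1e-41). CD11b+ cells thus lost 60.3 percentage points there and CD4+ cells 43.2, and this difference between cell types could not be tested without values for single mice. The stretch is CpG-dense, with 6.97 CpGs per 100 bp over the CD11b+ DMR, and it lies 3.7 to 5.1 kb inside the gene. All 12 regions of *Gfi1* in CD11b+ cells and all 11 in CD4+ cells had the lower mean in R878H/+ cells, and its median losses, 15.3 and 17.1 percentage points, were the highest of the 9 genes. Downstream within the gene, means were 81.4% and 55.5% over the neighbouring coding exon and 53.0% and 20.2% over the next intron in CD11b+ cells, both with q = 1. A region 990 to 1210 bp upstream of the *Gfi1* start had 14.9% and 7.65% in CD4+ cells.

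**Figure D3:**
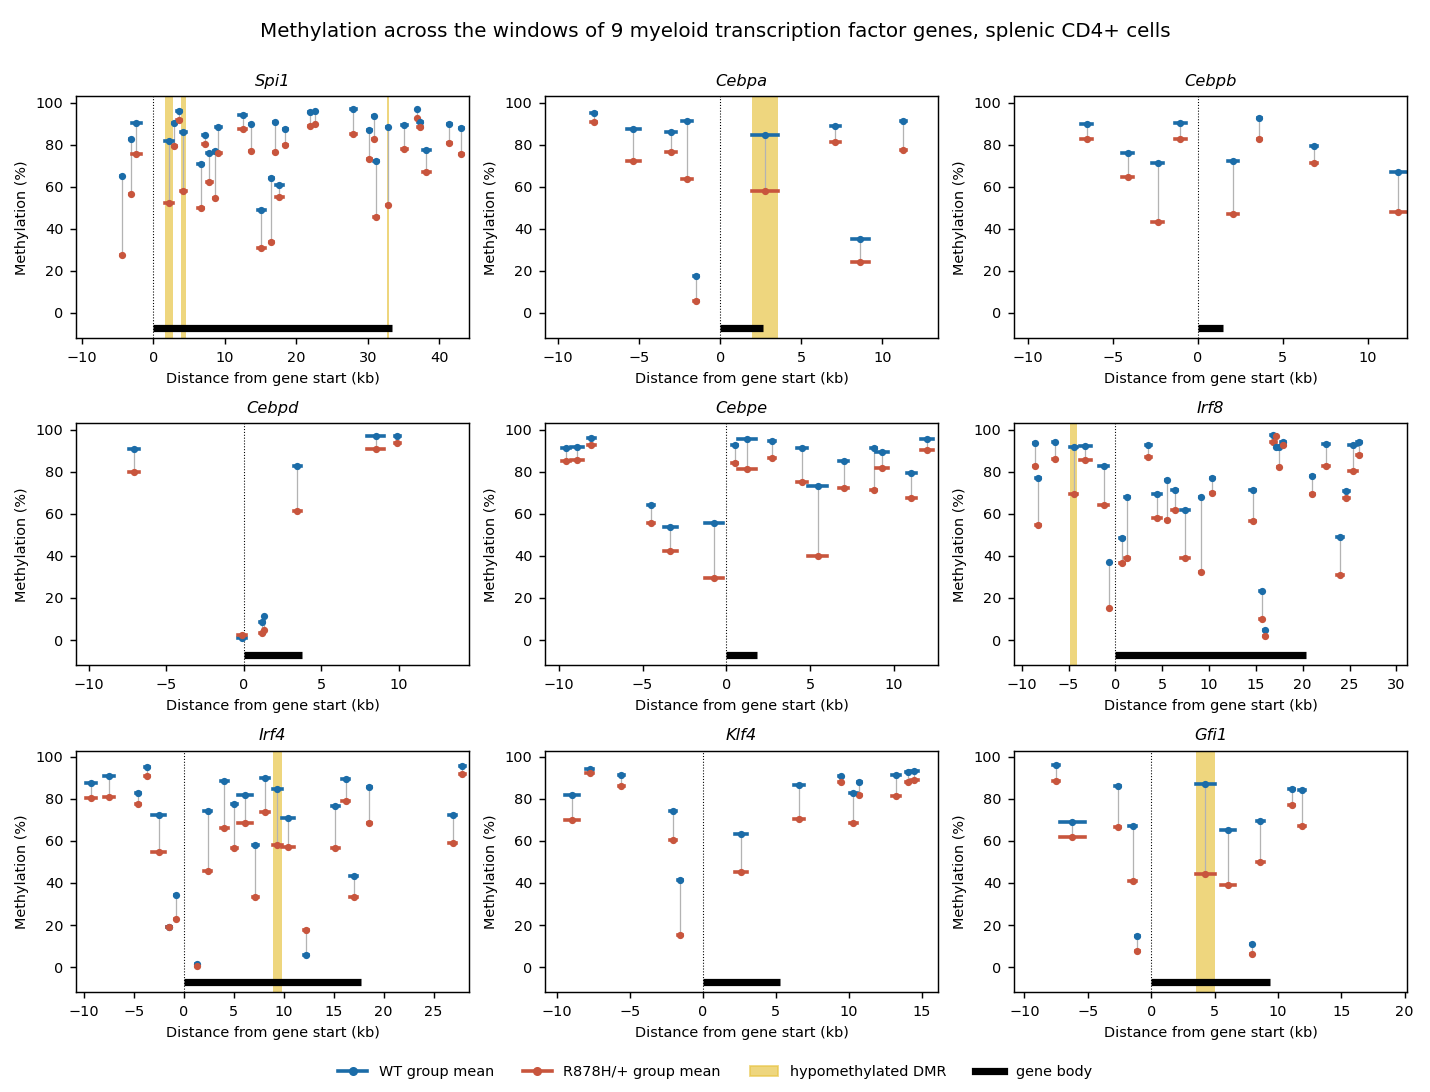
Mean methylation (%) of WT and R878H/+ CD4+ cells in every listed region of the 9 windows, by distance from the gene start in kb, with bars, lines and shading as for CD11b+ cells. The R878H/+ mean lies below the WT mean in 144 of 148 regions, and DMRs lie at *Spi1*, *Cebpa*, *Irf8*, *Irf4* and *Gfi1*.

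The gains of methylation in CD11b+ cells were examined together. Of 125 regions of the 9 genes, 15 had the higher mean in R878H/+ CD11b+ cells (6.56% of all listed regions did), and 6 gained more than 20 percentage points. These 6 regions lay at *Cebpa* (977 to 1212 bp from the start, 2.02% and 32.3% over 22 cytosines, q = 1), *Cebpb*, *Cebpd* and *Klf4*, and all had less than 3% methylation in WT cells. With both strands counted, their means rest on part of the CpG cytosines they span. Cytosines used and CpG dinucleotides spanned were 22 and 23 at *Cebpa*, and 29 and 48 at *Klf4*. At *Cebpb* they were 22 and 26, and 10 and 11, and at *Cebpd* 10 and 26, and 10 and 6. The pair at *Cebpb* and *Klf4* that passed the q-value threshold compares with 0.0126% of all regions and, by gene, with 0.441% of 18364 genes. Of 11 regions of the 9 genes with WT methylation under 10%, these 6 gained more than 20 percentage points, whereas 9.27% of all 8415 such regions did. In CD4+ cells, 0 of 5 such regions did (0.0255% of 7855), 4 of 148 regions had the higher mean (4.53% of all regions), and 0 were hypermethylated DMRs (0.000542%). No CD4+ region was listed over any of the 6 gained stretches, so these CD4+ counts come from other bases. The largest CD4+ gain, in a coding exon of *Irf4*, was from 5.92% to 17.6% (q = 1).

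The share of such gains rose with GC content over all regions of CD11b+ cells with WT methylation under 10%. It was 2.18% at a GC content of up to 55%, 13.0% between 60% and 65%, 20.7% between 65% and 70%, and 24.1% above 70%. Of the 6 gains at the 9 genes, 5 lay in regions with 62.3% to 73.5% GC, and the 3′ untranslated region of *Cebpb* had 37.4%. Regions of the mitochondrial genome, often read as a rough guide to how completely bisulfite converted unmethylated cytosines, also differed between genotypes. In CD11b+ cells, all 20 had the higher mean in R878H/+ cells, with medians of 15.1% in WT and 18.1% in R878H/+ and differences from 0.6 to 11.9 percentage points. In CD4+ cells, all 21 had the lower mean in R878H/+ cells, with medians of 13.8% and 8.56% and losses from 2.54 to 13.1 percentage points. Thus mitochondrial values moved in the direction of the gains in CD11b+ cells and of the losses in CD4+ cells. The sample titles carry numbers of a lower and a higher series. All R878H/+ CD4+ entries are in the higher series, while most WT CD4+ entries are in the lower. All WT CD11b+ entries are in the lower series, as are most R878H/+ CD11b+ entries. What the series stand for is not stated. The part of GC content, of conversion, of the number series and of single mice in the gains and in the losses was not tested.

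**Figure D4:**
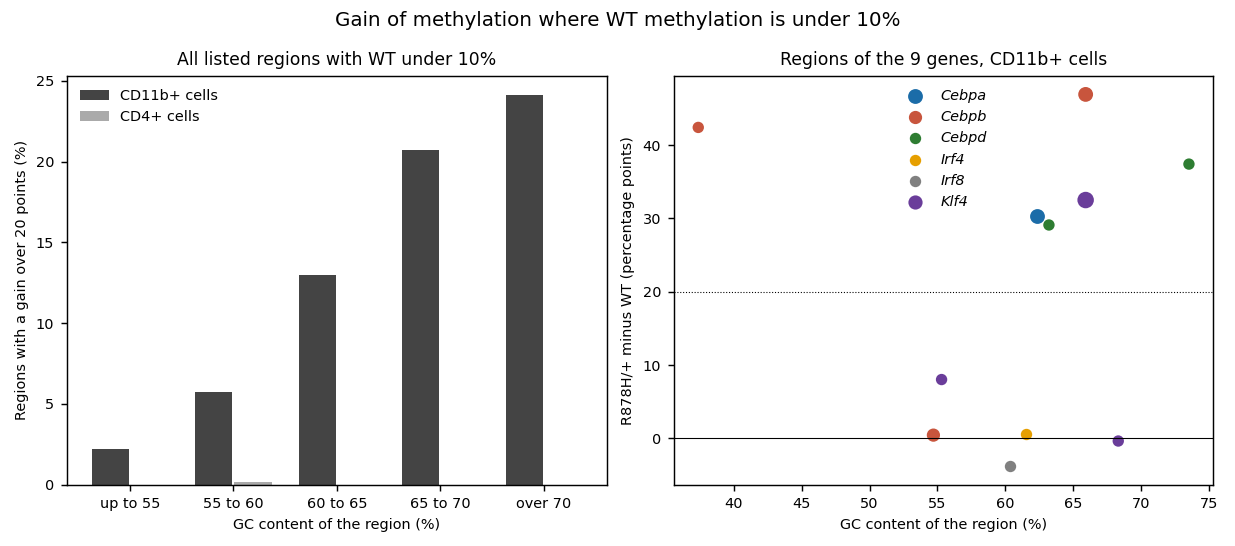
Left, share of listed regions with WT methylation under 10% that gained more than 20 percentage points, by GC content of the region, in both cell types. Right, GC content (%) and change (R878H/+ minus WT, percentage points) of the 11 such regions of the 9 genes in CD11b+ cells, with point size growing with the number of cytosines. The share rises from 2.18% to 24.1% in CD11b+ cells, and 6 of the 11 regions lie above the dotted line at 20 percentage points.

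The cell types were then compared within each genotype, to see whether myeloid cells carried less methylation at these genes. Regions of the 2 tables that overlapped were paired, which gave 90 pairs at the 9 genes and 241991 in all. Boundaries differ between the tables, so a pair does not hold identical CpGs, and the shortest overlaps were of 1 bp. Each CD11b+ region was paired with 1 CD4+ region, but some CD4+ regions entered more than 1 pair. The pairs counted below are therefore not all separate loci. In WT cells, methylation was higher in CD4+ cells in 63 of 90 pairs (59.9% of all pairs), with a median difference of 4.52 percentage points (1.07 over all pairs). In R878H/+ cells the median difference was 4.45 (0.856 over all pairs). It was higher in WT CD4+ cells in 15 of 18 pairs at *Spi1*, 7 of 8 at *Cebpa*, 4 of 4 at *Cebpb* and 7 of 8 at *Cebpe*, with medians of 8.61, 7.48, 6.38 and 12.4 percentage points. At *Irf4*, *Klf4* and *Gfi1* it was higher in 6 of 10, 6 of 9 and 7 of 11 pairs, with medians of 1.31, 1.6 and 5.84. At *Irf8* it was higher in 10 of 21 pairs, with a median of -0.542. The only pair at *Cebpd* was higher in WT CD4+ cells by 20.1 percentage points. No test across mice was possible for these differences.

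Single pairs with at least 50% reciprocal overlap show their size. Downstream of *Cebpe*, WT methylation was 41.1% in CD11b+ and 79.2% in CD4+ cells, and R878H/+ methylation 35.1% and 67.5%. In an exon of *Spi1* it was 45.9% and 72.2% in WT cells and 41.7% and 45.6% in R878H/+ cells. An intron of *Spi1*, 6716 to 7320 bp from the start, went the other way, with 66.4% and 84.5% in WT but 33.2% and 80.2% in R878H/+ cells. The gap between cell types was thus smaller in R878H/+ cells at the first of these *Spi1* regions and larger at the second. For a pair upstream of *Klf4* the order was reversed, with 52.9% in WT CD11b+ and 41.5% in WT CD4+ cells. The adjacent CD11b+ region toward the start, paired with the same CD4+ region by a shorter overlap, had 20.6% in WT. The reversal thus depends on the region boundaries. Of the 90 pairs, 85 had the lower mean in R878H/+ cells in both cell types, close to the 92.8% of all pairs that did.

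**Figure D5:**
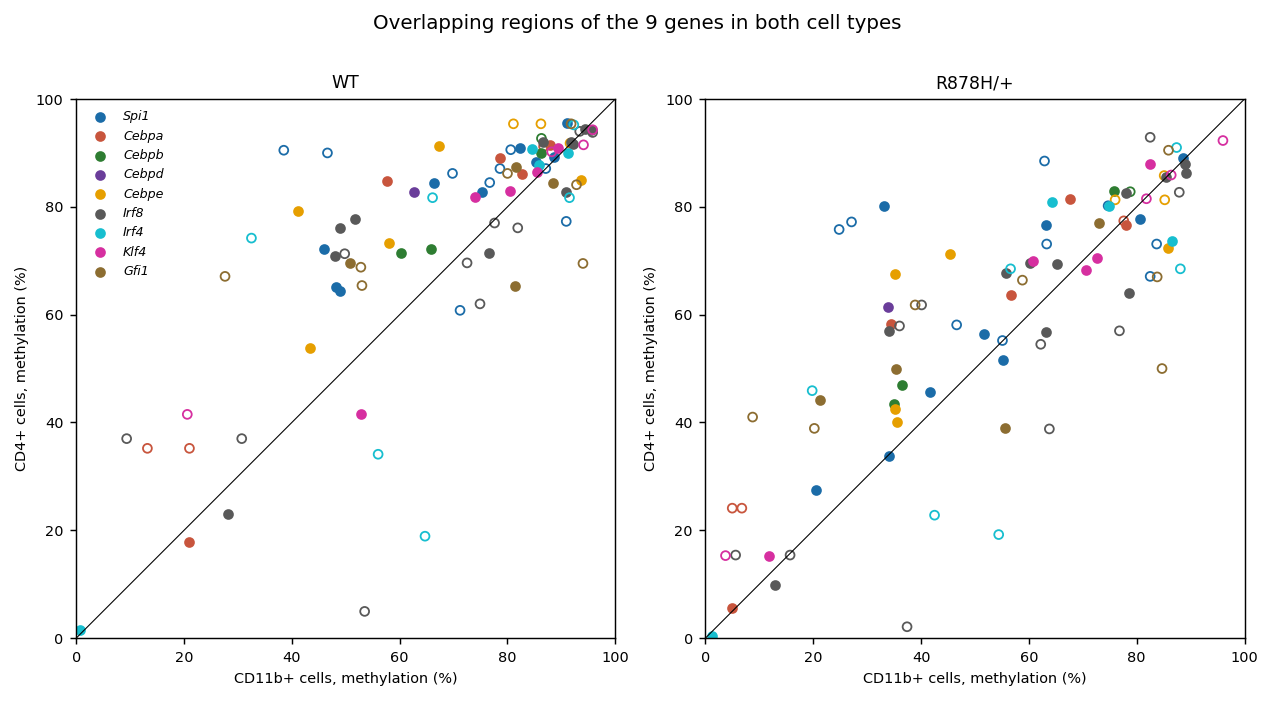
Methylation (%) in CD11b+ cells (horizontal) and CD4+ cells (vertical) of the 90 overlapping region pairs at the 9 genes, in WT cells (left) and R878H/+ cells (right). Filled points overlap by at least 50% reciprocally (47 pairs), open points by less, and the diagonal marks equal methylation. In WT cells, 63 pairs lie above the diagonal.

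Related genes were taken from lists. Of 16 other members of the same families (among them *Spib*, *Spic*, *Cebpg*, *Gfi1b* and IRF and KLF genes), 4 carried a hypomethylated DMR in CD4+ cells, beside the 13.4% of all genes. The windows of these genes also reached 10 kb beyond the gene, so a DMR need not lie in the gene named. In the window of *Irf2*, a repressor of interferon responses, methylation fell from 62% to 22.9% (2926 to 3542 bp from the start, q = 0.0013). In that of *Irf9*, part of the interferon-activated complex ISGF3, it fell from 49.1% to 22.8% (14401 to 15077 bp from the start, q = 3.5e-05). *Klf3* had a pair of DMRs, of which the larger loss was from 79.9% to 40.9% (5108 to 5410 bp, q = 0.00021). In the window of *Klf6*, methylation fell from 78.9% to 52.0% (8313 to 9656 bp, q = 0.0064). Of 14 known targets of these factors, among them *Csf3r*, *Mpo*, *Elane*, *Itgam* and *Lyz2*, *Csf1r* alone had a DMR, 1 of 14 in each cell type, which is below the shares of all genes given above. *Csf1r* encodes the receptor for the macrophage growth factor M-CSF. Its DMR began 7092 bp from the start in both cell types. There, methylation fell from 43.0% to 8.87% in CD11b+ cells (q = 1.2e-05) and from 78.6% to 25.7% in CD4+ cells (q = 3e-06), over 13 cytosines in each. No gene of either list had a hypermethylated DMR.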

How the data were processed

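DNA of CD11b+ and of CD4+ spleen cells of 4 WT and 4 R878H/+ mice was sequenced after bisulfite conversion. The authors mapped reads to mm10 with BISCUIT and passed CpG methylation ratios to metilene; versions and parameters are not given in the sources used here. The deposited tables, one per cell type and without headers, hold for each region the CpG count, the means of both groups in percent, as the authors computed them, a q-value, and a difference and p-values that were not used. They hold 0 columns of values for single mice and no depth, so no interval or error could be given. In regions of 10 cytosines, 100% of the group means were whole multiples of the step that 4 whole-percent values per cytosine give (tolerance 0.0005 percentage points), so the 6 entries of R878H/+ CD11b+ cells had entered as 4.

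The difference was recomputed from the group means, and the deposited q-value was used as metilene's. Starts were shifted to count from 1, since the starts of all 5000 regions tried fell on a CpG when counted from 0. Genes and exons came from GENCODE release 21, and sequence, GC content and CpGs from the RefSeq copy of mm10. A pair of regions from the 2 tables counted as matched when they overlapped, with the longest overlap kept for each CD11b+ region. Regions near a start lay within 1 kb of one. Every DMR, every region near a start and the largest difference of each window in each cell type were to be named. The members and lists were chosen with earlier results of these data known. Calling, matching and window steps were tested on simulated data. Python 3.11.15, numpy 2.4.6, pandas 2.3.3 and pysam 0.24.0 were used. For 1 gene of the family list the result is left out here.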

Additional observations from a re-analysis of the deposited data

How the results depend on the processing

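No paired analysis was possible because the tables hold no values for single mice, and for the same reason no mouse could be left out. Hypomethylated DMRs of the 9 genes numbered 4 in CD11b+ cells and 7 in CD4+ cells. In CD11b+ cells they became 2 with a q-value below 0.01, 16 without a q-value threshold and 1 (*Gfi1*) in gene bodies alone. In CD4+ cells they became 23 without a q-value threshold, 2 with a difference above 30 percentage points and 11 with 50 kb on each side. The 2 hypermethylated DMRs of CD11b+ cells became 1 (*Klf4*) with a q-value below 0.01. The median loss in CD11b+ cells, 9.5 percentage points, was 12.3 in regions with more than 10 CpG cytosines. In CD4+ cells, 11.4 became 12.6 with regions weighted by their CpGs, 13.3 in regions with more than 10 CpG cytosines, 13.2 in gene bodies alone and 8.8 with 50 kb on each side. The median of WT CD4+ minus WT CD11b+ cells, 4.52, was 6.81 in gene bodies alone. No alternative turned a direction, and the other values stayed within 1.5 times the count or 1 percentage point. Depth is not given, so its limit on single regions is unknown.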

Other observations

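Distal enhancers of several of these genes are known to lie beyond the 10 kb limit, so DMRs between 10 and 50 kb from the gene bodies were listed too. CD11b+ cells had 0 among the 242 regions listed there, of which 98 held more than 10 cytosines (0.576% of all listed regions were hypomethylated DMRs). CD4+ cells had 4 among 319 regions, of which 152 held more than 10 cytosines, all hypomethylated (1.25%, beside 0.665% of all listed regions). Whether the cell types differ here was not tested. A pair flanked *Irf4*, falling from 63.0% to 19.0% about 24 kb upstream of the start (chr13:30724894-30725352, 12 cytosines, q = 0.02) and from 63.4% to 23.2% about 28 kb downstream of it (chr13:30777520-30778035, 21 cytosines, q = 4.6e-06). Both lay outside protein-coding genes, and both lost more than the intronic DMR of *Irf4*. Another lay about 56 kb downstream of the *Irf8* start, from 55.3% to 30.2% (chr8:120792548-120793555, q = 0.013). The last, in *Gm29776* downstream of *Cebpe*, fell from 66.9% to 40.3% (chr14:54694754-54695602, 31 cytosines, q = 0.0013).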
